A study of Mus musculus with 8 samples.

Results

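Calcitonin gene-related peptide (CGRP) and adrenomedullin act through receptors that share one subunit. Here 6 genes of that system, Calcrl, Ramp1, Ramp2, Ramp3, Crcp and Adm, were followed through single-cell RNA sequencing of mouse long bone periosteum. They were chosen by symbol from the 32285 genes in the deposited matrices, and all 6 were found. The periosteum came from the femurs and tibias of male C57BL/6J mice aged 16 weeks, fed either a normal diet (ND) or a high-fat diet (HFD), with no other treatment named. The labels list 4 mice per diet, but each diet was deposited as 1 pooled matrix with no map from cells to mice. Each diet was therefore 1 sample, no test of a diet effect was possible, and cells were not treated as replicates. The comparison addressed which periosteal cells could receive signals from sensory nerves, and whether the transcripts differed between the diets.

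CGRP is a neuropeptide released by sensory nerve endings, which are dense in periosteum, and adrenomedullin is a related vasodilator peptide made by many tissues under stress or low oxygen. The calcitonin receptor-like receptor, encoded by Calcrl, needs a receptor activity-modifying protein (RAMP) to reach the cell surface and to recognise its ligand. With RAMP1 it forms the CGRP receptor, with RAMP2 or RAMP3 it forms adrenomedullin receptors, and all 3 pairs signal mainly through the stimulatory G protein and cyclic AMP. CRCP is an accessory protein reported to couple the CGRP receptor to its G protein, and it is also a subunit of RNA polymerase III.

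Each gene has 1 identifier in the files, and all 6 matched protein-coding genes of the GENCODE annotation of GRCm38, so the coordinates below are those of whole genes, exons and introns together. Calcrl (ENSMUSG00000059588) is on the minus strand at chr2:84330626-84425411. On the plus strand are Ramp1 (ENSMUSG00000034353) at chr1:91179822-91225196, Ramp2 (ENSMUSG00000001240) at chr11:101246028-101259546 and Ramp3 (ENSMUSG00000041046) at chr11:6658521-6677475. Crcp (ENSMUSG00000025532) is at chr5:130029290-130060789 and Adm (ENSMUSG00000030790) at chr7:110627661-110629820, both also on the plus strand. Ramp2 and Ramp3 are on the same chromosome but far apart.

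After removal of barcodes with 500 genes or fewer, 8000 genes or more, or 20% or more mitochondrial transcripts, 6029 of 6314 ND and 6224 of 6636 HFD barcodes remained. Their median depths were 4610 and 4823.5 unique molecular identifiers (UMIs, each standing for 1 captured transcript). The libraries shared 15 barcodes, 14 of them among the cells kept. Clustering gave 28 clusters, and 12 cell classes could be named from marker genes as mesenchymal-, endothelial-, pericyte or smooth muscle-, neutrophil-, macrophage or monocyte-, dendritic-, basophil or mast-, T-, NK-, B-, erythroid- and granulocyte-monocyte progenitor (GMP)-like. The pathway genes were left out of both the clustering and the markers. Mesenchymal-like cells numbered 409 in ND and 668 in HFD, endothelial-like cells 117 and 228, and pericyte or smooth muscle-like cells 30 and 59, so most cells were of blood lineages. The remaining 434 cells were in 2 unnamed clusters. A score of 18 immediate-early and heat-shock genes was lower in HFD than in ND in every class except erythroid-like cells, and its values are given beside the results it moved with.

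Levels are given as UMIs per 1000000 UMIs of the class (UPM). The brackets hold exact Poisson 95% intervals for levels and exact Clopper-Pearson 95% intervals for shares of cells. All intervals cover counting error only, not differences between mice. UMIs count transcript ends and were not divided by gene length, so each gene is mainly compared with itself across cells. Where the Ramp genes are set beside each other, differences in capture between genes were not corrected for. The UMI totals over all kept cells were 1160 in ND and 1390 in HFD for Calcrl, 5921 and 6026 for Ramp1, 1568 and 2453 for Ramp2, 120 and 144 for Ramp3, 1150 and 1092 for Crcp, and 746 and 598 for Adm.

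Calcrl, the subunit that every one of these receptors contains, was highest in endothelial-like cells in both libraries. Its level there was 124.7 UPM in ND [97.6 to 157] and 157.3 UPM in HFD [134.8 to 182.6], with a UMI in 42 of 117 and 93 of 228 cells. Pericyte or smooth muscle-like cells followed at 54.6 UPM [31.2 to 88.6] and 62.1 UPM [43.3 to 86.4], and mesenchymal-like cells at 34.3 UPM [29.2 to 39.9] and 38.0 UPM [33.5 to 42.8]. The endothelial-like intervals lay above those of pericyte or smooth muscle-like cells in both libraries, while the latter and mesenchymal-like cells overlapped in ND but not in HFD. Neutrophil-like cells held 29.4 UPM [26.8 to 32.2] in ND and 33.1 UPM [30.4 to 36.0] in HFD. One ND mesenchymal-like cell held 48 of the 164 Calcrl UMIs of its class. With the cell richest in Calcrl left out of each library, mesenchymal-like cells were at 24.4 and 36.3 UPM. Neutrophil-like cells, treated the same way, held Calcrl at 28.9 and 32.6 UPM. They were thus above mesenchymal-like cells in ND and below them in HFD, so the ND order of these 2 classes rested on 1 cell for Calcrl. In B-like cells it was 12.6 and 16.9 UPM, in macrophage or monocyte-like cells 15.3 and 13.3, in GMP-like cells 16.8 and 16.5, in T-like cells 20.3 and 12.4, and in NK-like cells 16.5 and 12.6 UPM. Dendritic-like cells held 32.0 and 20.8 UPM on 15 and 13 UMIs, basophil or mast-like cells 20.6 and 3.62 UPM on 10 and 2 UMIs, and erythroid-like cells 12.5 and 2.09 UPM on 7 and 1. Neighbours in this lower part of the order overlapped, and each class had at least 1 Calcrl UMI in each library. Erythroid-like cells were taken as the background class for free RNA from other cells. Their ND interval of 5.03 to 25.8 UPM overlapped with those of B-, macrophage or monocyte-, NK- and GMP-like cells. In HFD, at 0.0529 to 11.7 UPM, it lay below those of B- and GMP-like cells. The part of free RNA in these low levels was not tested.

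Ramp2, the partner that forms the adrenomedullin-1 receptor, was concentrated in endothelial-like and mesenchymal-like cells. Endothelial-like cells held 890.3 UPM [815 to 971] in ND and 812 UPM [760 to 867] in HFD, with a UMI in 95 of 117 and 192 of 228 cells. In mesenchymal-like cells it was 204 UPM in both libraries, with intervals of 192 to 217 and 193 to 214, and with a UMI in 256 of 409 and 348 of 668 cells. Pericyte or smooth muscle-like cells, which lie next to the endothelium in vessels, held 5 UMIs in ND, all in 1 cell, and 1 UMI in HFD. No other class exceeded 4 UPM. T-like cells had no Ramp2 UMI in 298 ND and 206 HFD cells at median depths of 6600 and 6908 UMIs, which allows shares of up to 1.01% and 1.46%. Mesenchymal marker genes were found in these T-like cells at 46.6 and 96.1 UPM, and the part of free RNA in the Ramp2 levels was not tested.

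Ramp1, the partner that makes the CGRP receptor, had nearly the opposite distribution. It was highest in GMP-like cells, at 398 UPM [383 to 413] in ND and 445 UPM [427 to 464] in HFD, and in dendritic-like cells, led by Siglech, at 380 UPM [326 to 440] and 511 UPM [457 to 570]. These classes overlapped in both libraries. Pericyte or smooth muscle-like cells, at 300.1 UPM [241 to 370] and 268 UPM [227 to 314], were the class outside the blood lineages with the highest level. Macrophage or monocyte-like cells held 147 and 200.3 UPM, basophil or mast-like cells 121 and 176 UPM, and T-like cells 72.9 and 49.0 UPM. Neutrophil-like cells were at 64.7 and 63.2 UPM, mesenchymal-like cells at 51.6 and 42.0, and B-like cells at 42.3 and 49.8. Endothelial-like cells were low, with 5 UMIs in ND and 4 in HFD (8.66 and 3.64 UPM), and erythroid-like cells had none in 33 ND cells and 2 in 26 HFD cells.

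Ramp3, the partner that forms the adrenomedullin-2 receptor, was rare and was found mainly in T-like and endothelial-like cells. T-like cells held 30.0 UPM [23.1 to 38.2] in ND and 41.8 UPM [32.2 to 53.4] in HFD. Endothelial-like cells held 22.5 UPM [11.99 to 38.5] and 15.5 UPM [9.01 to 24.8], overlapping with T-like cells in ND and not in HFD. All remaining classes were below 6.5 UPM. Taking the Ramp UMIs of a class together, Ramp2 made up 79.6% in ND and 82.7% in HFD of those in mesenchymal-like cells and 96.6% and 97.7% of those in endothelial-like cells. Ramp1 made up 94.6% and 98.7% in pericyte or smooth muscle-like cells, 96.5% and 93.9% in neutrophil-like cells, 96.5% and 97.1% in macrophage or monocyte-like cells, and 99.2% and 98.8% in GMP-like cells. T-like cells were more evenly divided, with 70.9% Ramp1 and 29.1% Ramp3 in ND and 54.0% Ramp1 and 46.0% Ramp3 in HFD.

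**Figure D1:**
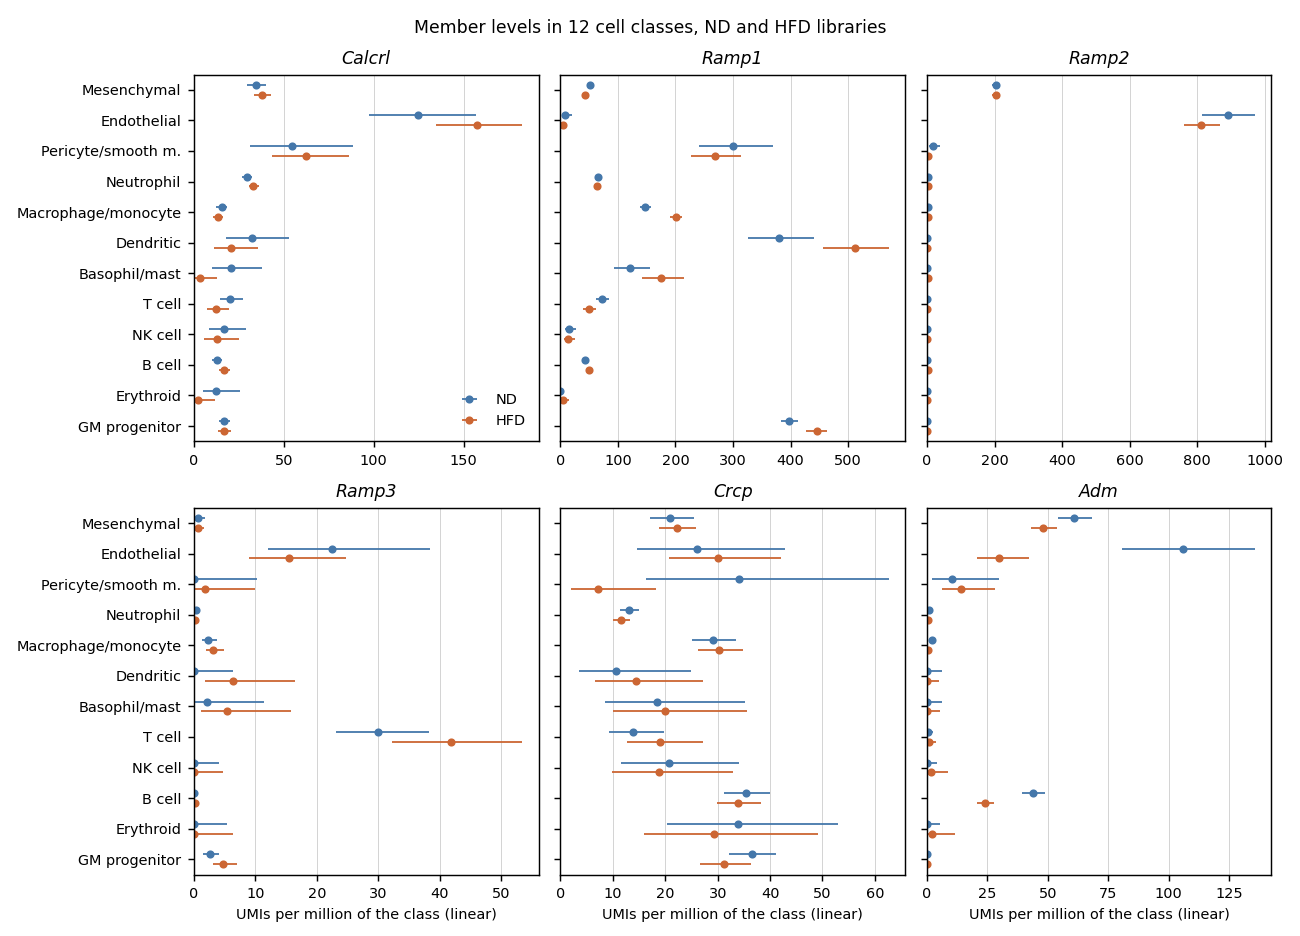
Levels of the 6 genes in the 12 cell classes. Each panel is 1 gene, the axis gives UPM of the class, blue is ND, orange is HFD, and bars are exact Poisson 95% intervals. Calcrl and Ramp2 peak in endothelial-like cells at 124.7 and 890.3 UPM in ND, Ramp1 in dendritic-like and GMP-like cells, and Adm differs between the libraries in endothelial-like and B-like cells.

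Crcp had no class in which it stood out. Its level ran from 10.7 UPM in dendritic-like to 36.5 UPM in GMP-like cells in ND, and from 7.10 UPM in pericyte or smooth muscle-like to 33.9 UPM in B-like cells in HFD. Neutrophil-like cells, at 13.1 UPM [11.4 to 15.0] and 11.6 UPM [10.1 to 13.3], lay below B-like cells, at 35.4 UPM [31.3 to 39.9] and 33.9 UPM [29.9 to 38.3].

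Adm, which encodes the adrenomedullin precursor, was found in endothelial-like, mesenchymal-like and B-like cells. In ND the levels stood in that order without overlap, at 105.7 UPM [80.8 to 135.7], 61.0 UPM [54.2 to 68.5] and 43.7 UPM [39.1 to 48.7]. In HFD mesenchymal-like cells were highest at 48.2 UPM [43.2 to 53.6], above endothelial-like cells at 30.0 UPM [20.7 to 42.2] and B-like cells at 24.0 UPM [20.7 to 27.8], which overlapped. The UMIs lay in 33 of 117 ND and 16 of 228 HFD endothelial-like cells, 114 of 409 and 135 of 668 mesenchymal-like cells, and 138 of 1507 and 98 of 1474 B-like cells. GMP-like cells, the deepest class at median depths of 31100 and 26740 UMIs, had Adm UMIs in 0 of 230 ND and 1 of 197 HFD cells. Pericyte or smooth muscle-like cells held 3 and 8 UMIs (10.2 and 14.2 UPM), and each of the other classes 2.1 UPM or less.

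The 250 bases upstream of the Adm start are shown because Adm in endothelial-like cells had the lowest HFD over ND ratio of the members. They are from RefSeq on GRCm38.p6, chr7:110627407-110627656, plus strand, read 5′ to 3′, and the capitals mark the one match to a Kruppel-like factor motif.
Adm upstream: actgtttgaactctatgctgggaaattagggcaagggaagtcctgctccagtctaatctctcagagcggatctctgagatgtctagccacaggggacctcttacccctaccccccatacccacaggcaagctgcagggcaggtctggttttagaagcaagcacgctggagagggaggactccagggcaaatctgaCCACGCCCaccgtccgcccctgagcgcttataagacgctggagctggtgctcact
The motif searched was CCNCNCCC on both strands, its match begins at position -55 counted from the start, and 45.9% of 32851 promoter windows of the same length hold one. The hypoxia response core ACGTG (in 16.6% of windows), the cyclic AMP response element TGACGTCA (1.55%), the AP-1 site TGACTCA (4.46%), the heat shock core TTCNNGAA (7.17%) and the ETS motif AGGAAG (29.5%) were not in these letters on either strand. Such matches describe the sequence only. The promoter table also holds Calcrl, Ramp1 and Ramp3, and Ramp2 and Crcp were not in it.

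Co-detection showed which Ramp transcript lay in the same cells as Calcrl. Among mesenchymal-like cells with a Calcrl UMI, 53 of 64 in ND (82.8% [71.3 to 91.1]) and 96 of 115 in HFD (83.5% [75.4 to 89.7]) also had a Ramp2 UMI. In mesenchymal-like cells without Calcrl the share was 58.8% and 45.6%. Ramp1 was found in 42.2% and 43.5% of the Calcrl-positive and in 24.4% and 16.1% of the Calcrl-negative mesenchymal-like cells. Over the class as a whole both Ramp genes were thus more often detected in the cells that had Calcrl. Those cells were deeper, with median depths of 13020 and 12960 UMIs against 10400 and 9079. Cells were also sampled down to 1000 UMIs each, at the cost of 55 ND and 51 HFD cells too shallow for it. Of the Calcrl-positive mesenchymal-like cells that remained, 2 of 9 ND and 6 of 19 HFD cells kept a Ramp2 UMI, against 17.3% and 13.8% of the Calcrl-negative ones, too few to place the difference. Clustered again (below), Ccl11-led cells had Ramp2 in 87.0% and 81.8% of Calcrl-positive against 76.9% and 78.6% of Calcrl-negative cells. In Pi16-led cells the shares were 95.65% and 97.4% against 91.5% and 88.3%, with overlapping intervals in both subclusters. For Ramp1 they were 39.1% and 52.3% against 30.8% and 23.0% in Ccl11-led cells, with intervals apart in HFD only. In Pi16-led cells they were 43.5% and 43.6% against 49.15% and 30.0%, with overlap.

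In endothelial-like cells Ramp2 was so common that it accompanied Calcrl in most cells. It was found in 38 of 42 Calcrl-positive cells in ND (90.5% [77.4 to 97.3]) and 79 of 93 in HFD (85.0% [76.0 to 91.5]), against 76.0% and 83.7% of Calcrl-negative cells. Thinned to 1000 UMIs the shares were 60.0% in ND and 39.4% in HFD of Calcrl-positive cells, against 51.0% and 55.1% of the Calcrl-negative ones. The intervals of Calcrl-positive and Calcrl-negative cells overlapped in both libraries, thinned or not. Ramp1 and Calcrl shared 4 endothelial-like cells in ND and 1 in HFD.

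In pericyte or smooth muscle-like cells the partner was Ramp1, with 9 of 11 Calcrl-positive cells in ND and 15 of 19 in HFD, against 63.2% and 85.0% of Calcrl-negative cells. These shares overlapped. GMP-like cells had Ramp1 in 70 of 75 Calcrl-positive cells in ND (93.3%) and 53 of 54 in HFD, against 77.4% and 79.0% of Calcrl-negative cells. The Calcrl-positive GMP-like cells were deeper, with medians of 36930 and 31110 UMIs against 28530 and 24390. Thinned to 1000 UMIs, Ramp1 was in 0 of 4 ND and 1 of 3 HFD Calcrl-positive GMP-like cells, against 30.8% and 30.3% of the others, too few to place the difference. Macrophage or monocyte-like cells went the other way, with Ramp1 in 49.4% [38.1 to 60.7] of Calcrl-positive against 66.7% [62.2 to 71.1] of Calcrl-negative ND cells, and 59.4% [46.9 to 71.1] against 70.2% [65.8 to 74.3] in HFD. Those intervals were apart in ND and overlapped in HFD. Thinned to 1000 UMIs, Ramp1 was in 0 of 6 ND and 0 of 7 HFD Calcrl-positive cells of this class, against 13.4% and 13.2% of the others, too few to place the difference. Its C1qa-led macrophages held Calcrl at 28.55 and 18.5 UPM and Ramp1 at 69.3 and 113 UPM. In its largest cluster of Ccr2-positive monocytes these were 8.98 and 10.6 UPM and 183 and 249.8 UPM. Co-detection within these clusters was not examined.

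B-like cells showed a wide gap in HFD, where 45 of 106 Calcrl-positive cells had Ramp1 (42.5% [32.9 to 52.4]) against 6.29% [5.06 to 7.71] of Calcrl-negative ones. In ND it was 17 of 78 (21.8% [13.2 to 32.6]) against 6.02% [4.84 to 7.38]. The ND and HFD intervals of the Calcrl-positive B-like cells were apart by little, at median depths of 4878 and 6539 UMIs, against 3845 and 3768 UMIs in Calcrl-negative B-like cells. Thinned to 1000 UMIs the gap was not seen, with Ramp1 in 0 of 30 ND and 0 of 21 HFD Calcrl-positive B-like cells, which allows shares of up to 10% and 14.3%, against 1.69% and 1.45% of the others. Calcrl and Ramp1 also both varied between B-like clusters, as given below, and co-detection within those clusters was not examined. In neutrophil-like cells 46.9% of Calcrl-positive ND cells and 43.0% of HFD cells had Ramp1, against 28.0% and 29.1% of the Calcrl-negative cells. Depth moved with that difference, since the Calcrl-positive neutrophil-like cells had medians of 13110 and 13140 UMIs against 3834 and 3924. Thinned to 1000 UMIs, Ramp1 was in 2 of 44 ND and 1 of 43 HFD Calcrl-positive neutrophil-like cells, against 6.96% and 7.32% of the others. The order of the shares thus turned, but their intervals overlapped in both libraries.

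**Figure D2:**
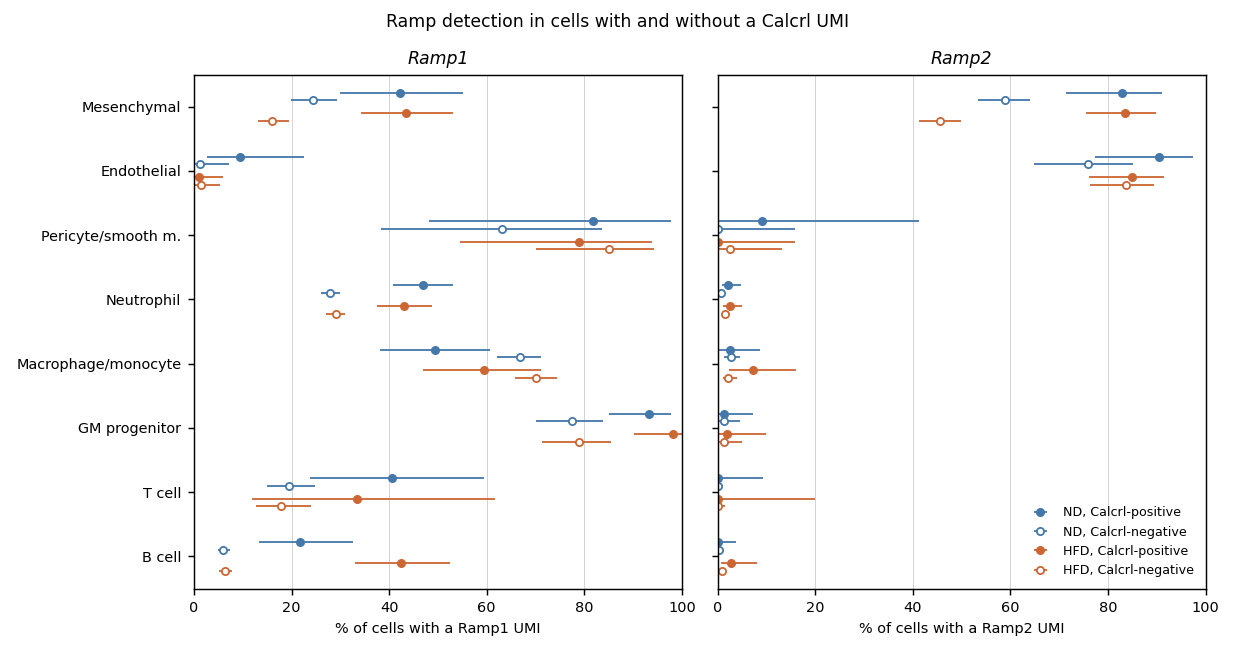
Share of cells with a Ramp1 or Ramp2 UMI among cells with (filled) and without (open) a Calcrl UMI in 8 classes. The axis is the percentage of cells, blue is ND, orange is HFD, and bars are exact Clopper-Pearson 95% intervals. Ramp2 is the frequent partner in mesenchymal-like (82.8% in ND) and endothelial-like cells (90.5%), and Ramp1 in pericyte or smooth muscle-like and GMP-like cells.

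Within the mesenchymal-like and endothelial-like cells the receptor genes were uneven. Subclusters are named here by their leading genes. Left out were a mesenchymal-like subcluster of 21 ND and 52 HFD cells and an endothelial-like one of 10 and 33. Their median depths were 2004 and 1593 UMIs, and the endothelial-like one held Calcrl at 53.6 and 202 UPM on 1 and 14 UMIs. A mesenchymal-like subcluster of 39 and 32 cells, 60.6% of them among the top 5% of doublet scores, was also left out. In mesenchymal-like cells led by Pi16 and Cadm3, Calcrl was 33.2 UPM in ND and 76.0 UPM in HFD, and Ramp2 was 400 and 422 UPM. Cells led by Ccl11 and Hmcn2 held Calcrl at 30.1 and 41.3 UPM and Ramp2 at 292 and 262 UPM. Osteoblast-like cells, led by Bglap and Ibsp, had 2 Calcrl UMIs in 57 ND cells and 1 in 126 HFD cells, and Ramp2 at 26.3 and 31.2 UPM. Cells led by Wnt16 and Mfap4 were also low in Calcrl, with 5 UMIs in 87 and 2 in 123 cells, while their Ramp2 was 92.2 and 72.7 UPM. Calcrl and Ramp2 were therefore both higher in the Pi16-led and Ccl11-led cells than in the osteoblast-like cells in both libraries, without overlap of intervals. The Ramp1 values had the same order, at 105.3 and 79.4 UPM in Pi16-led, 57.4 and 68.2 UPM in Ccl11-led, and 28.3 and 15.1 UPM in osteoblast-like cells. Ccl11-led cells overlapped with Pi16-led cells in HFD and with osteoblast-like cells in ND.

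A small subcluster led by Prg4 and Clic5, with 6 ND and 16 HFD cells, had the highest Calcrl level of the mesenchymal-like cells. It held 69 Calcrl UMIs in ND, 48 of them in 1 cell, and 76 in HFD, or 576 and 233 UPM. Its Ramp2 level was 125 UPM in ND and 617 UPM in HFD, and 54.6% of its cells were among the top 5% of doublet scores. With the cell richest in Calcrl left out of each library, Calcrl was 233 UPM in ND and 212 UPM in HFD. The share of doublets in these values was not tested.

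Among the endothelial-like subclusters, the cells led by Ccl21a and Lyve1, genes of lymphatic endothelium, had the highest Calcrl level, at 237 UPM [157 to 342] in ND and 315 UPM [240 to 406] in HFD. The cells led by Rgs5 and Car4 held 165 and 162 UPM, and those led by Trbc2 and Hspa1b 135 and 143 UPM. The leading genes of the last group mixed a T cell gene, Trbc2, and Ccl5 and Col1a1 with the heat-shock genes Hspa1b and Hspa1a. Cells led by Cytl1 and Gkn3 had the lowest level of these, at 32.0 UPM [11.8 to 69.7] and 50.0 UPM [28.0 to 82.4], and also carried neutrophil marker genes at 46560 and 48780 UPM. Ramp2 differed less, from 718 to 1141 UPM in ND and from 606 to 986 UPM in HFD over these 4 subclusters. Endothelial-like cells thus varied more in Calcrl than in its partner.

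**Figure D3:**
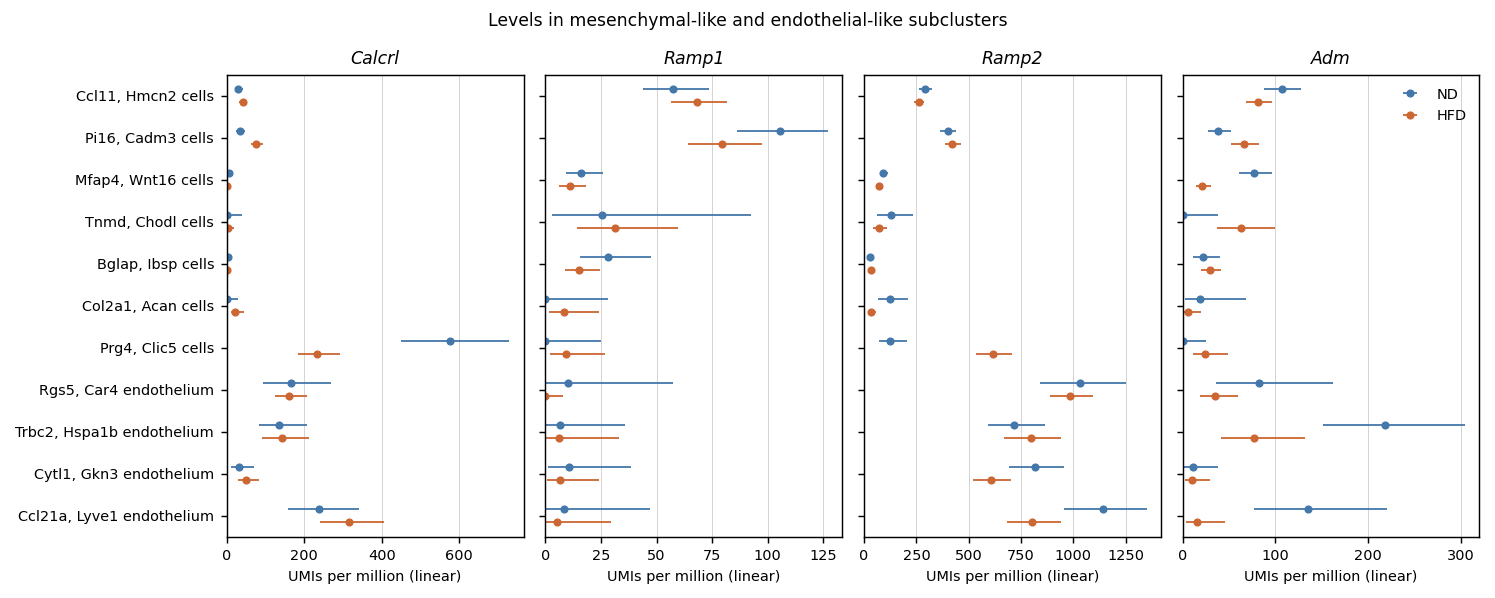
Levels of Calcrl, Ramp1, Ramp2 and Adm in 11 subclusters of mesenchymal-like and endothelial-like cells, named by their leading genes. The subclusters left out are given in the text. The axis is UPM of the subcluster, blue is ND, orange is HFD, and bars are exact Poisson 95% intervals. Calcrl is low in osteoblast-like cells, at 4.04 UPM in ND, and is 237 UPM in the Ccl21a-led endothelial-like cells.

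Blood lineages showed the same kind of spread between stages. Among neutrophil-like clusters, Calcrl was highest in the Camp- and Ngp-rich cells that resemble immature stages, at 46.5 and 60.3 UPM in one such cluster and 45.5 and 47.3 UPM in its dividing neighbour. In the Il1b-rich clusters that resemble mature neutrophils it was 7.56 and 8.01 UPM and 11.3 and 7.12 UPM. Ramp1 had the opposite order, at 41.0 and 36.4 UPM in the first of the immature clusters against 84.4 and 91.7 UPM and 78.8 and 104 UPM in the mature ones. Calcrl and its most abundant partner thus peaked in different neutrophil-like cells.

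In B-like cells Calcrl was highest in the Dntt-rich cells, which resemble early precursors, at 71.9 UPM in ND and 74.9 UPM in HFD. Ramp1 was 89.9 and 137 UPM there and 135 UPM in both libraries in the dividing Igll1-led cells, but 3.88 and 5.83 UPM in the large Iglc1- and Ms4a1-led cluster. Adm had its B-like peak in that Iglc1-led cluster, at 92.2 UPM in ND and 57.3 UPM in HFD. Receptor and ligand transcripts were therefore highest at different B-like stages. The T-like cells formed 2 clusters. The first held Ramp3 at 43.2 and 50.6 UPM and the second at 12.8 and 3.499 UPM, while Ramp1 was 48.1 and 43.4 UPM in the first and 105 and 73.5 UPM in the second. The second cluster had 123 ND cells and 44 HFD cells. Ramp3 was present in T-like cells with neither a Cd4 nor a Cd8a UMI (35.0 and 51.4 UPM), in those with Cd8a alone (22.03 and 15.9 UPM), and in the 21 ND and 14 HFD cells with Cd4 alone (32.4 and 131 UPM, on 4 and 9 UMIs).

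**Figure D4:**
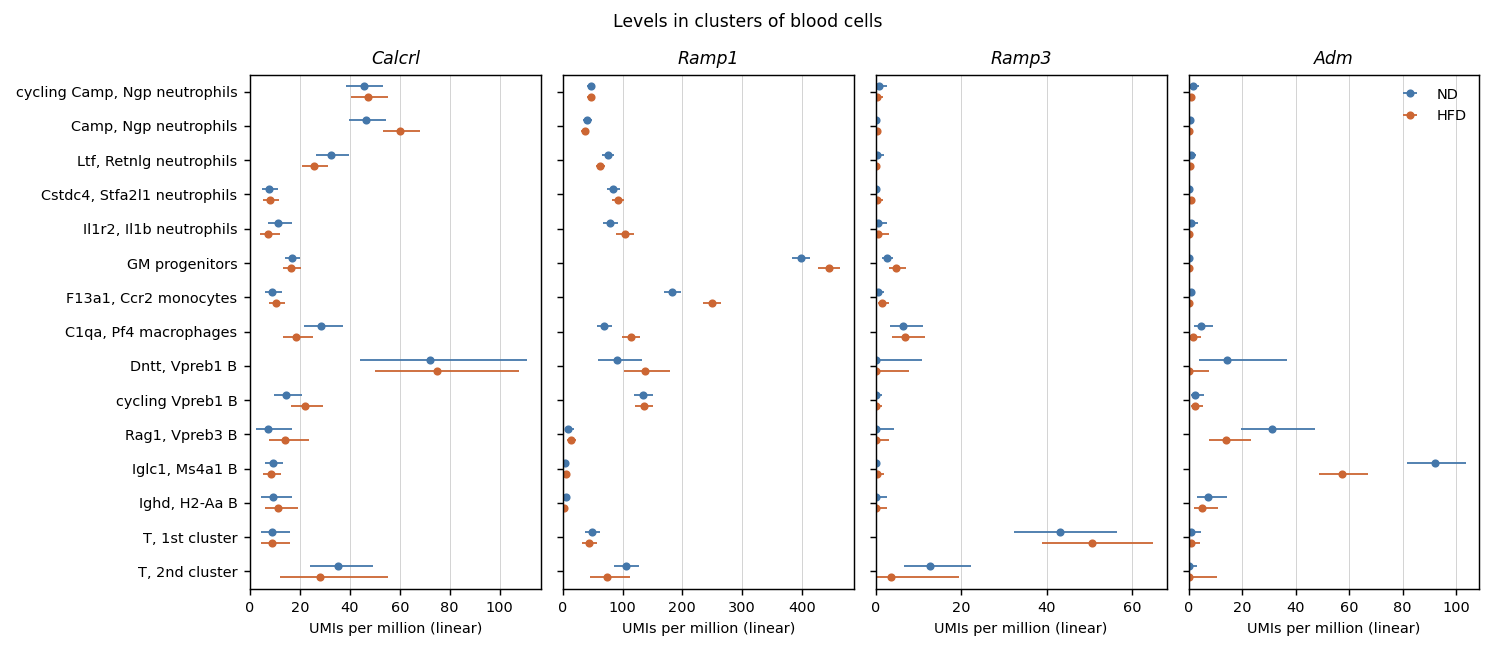
Levels of Calcrl, Ramp1, Ramp3 and Adm in 15 blood-lineage clusters. The axis is UPM of the cluster, blue is ND, orange is HFD, and bars are exact Poisson 95% intervals. Calcrl and Ramp1 run in opposite directions over the neutrophil-like clusters, and Adm peaks at 92.2 UPM in ND in the Iglc1-led B-like cluster.

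The diet comparison used the ratio of UPM in HFD over ND for each gene and class with at least 20 UMIs over both libraries, which left 42 pairs of a member and a class. Of these, 3 were at least 1.5-fold higher in HFD and 5 at least 1.5-fold lower, where over all 97447 gene and class pairs 7.19% were higher and 8.31% lower. Past that fold and also beyond counting error were 2 higher and 2 lower, against 3.17% and 4% of all pairs. The members' median log2 ratio was -0.02, and that of all pairs 0.01. As a list the members therefore had shares near those of all genes, and the pairs past the fold were single cases. They could not be separated from differences between mice, because each diet was 1 pool.

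Adm in endothelial-like cells had the lowest ratio of the members. Its 61 UMIs in 117 ND cells and 33 UMIs in 228 HFD cells gave a ratio of 0.286 [0.180 to 0.441], or -1.81 on the log2 scale. In this class 3.88% of genes were at least 1.5-fold lower and beyond counting error, and 30 of 7732 genes had a ratio at or below that of Adm. With cells assigned to classes by marker UMIs alone instead of by clusters, the log2 ratio was -0.98. The Trbc2- and Hspa1b-led subcluster held 34 of the 61 ND and 13 of the 33 HFD UMIs, at 218 and 77.3 UPM. Its Adm ratio was 0.363 [0.172 to 0.689], with the HFD UMIs in 3 cells, and its stress gene score was 74940 and 58400 UPM. In the Ccl21a-led subcluster Adm was at 135 and 15.8 UPM (0.132 [0.0218 to 0.407], on 16 and 3 UMIs). The Rgs5-led cells, at 82.5 and 35.0 UPM, had a ratio of 0.415 whose interval reached 1.18. The Cytl1-led cells, at 10.7 and 9.99 UPM on 2 and 3 UMIs, had a ratio of 0.874 [0.107 to 11.2]. The stress gene score of endothelial-like cells was 44910 UPM in ND and 25590 UPM in HFD, and the Hspa1b and Hspa1a heat-shock genes were among the 3 genes with the lowest ratios of the 1341 with at least 200 UMIs there, at 0.255 and 0.372, beside Depp1 at 0.313. Their part in the result was not tested. The highest ratios were those of Rgs5 at 7.64, Cytl1 at 4.17 and Hist1h2ap at 3.12, the first 2 being genes that lead single subclusters.

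In B-like cells Adm had 332 UMIs in ND and 183 in HFD, or 43.7 and 24.0 UPM, a ratio of 0.551 [0.457 to 0.661]. Of the genes in this class 3.44% were at least 1.5-fold lower and beyond counting error. The ratio was 0.622 [0.508 to 0.757] in the Iglc1-led cluster, which held 285 of the 332 and 157 of the 183 UMIs, and 0.453 [0.212 to 0.914] in the Vpreb3-led cluster, on 22 and 14 UMIs. The stress gene score of B-like cells was 17760 UPM in ND and 10570 UPM in HFD, and its part in the result was not tested. In mesenchymal-like cells Adm was lower by less, with a ratio of 0.789 [0.673 to 0.927], and the subclusters differed. The ratio was 0.278 [0.173 to 0.426] in the Wnt16-led cells and 1.72 [1.17 to 2.62] in the Pi16-led cells, but 39 of the 78 HFD UMIs of the latter came from 1 cell. Without the cell richest in Adm in each library, the ratios were 0.242 [0.138 to 0.394] and 1.05 [0.643 to 1.74]. The scale of ratios in mesenchymal-like cells ran from 0.219 for Mpo, 0.239 for Snorc and 0.241 for Chil3 to 6.25 for Spp1, 7.50 for Chodl and 7.81 for Cox4i2.

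On the high side, the pairs past the fold and beyond counting error were both Ramp2 at very low levels. In neutrophil-like cells it had 33 UMIs in ND and 66 in HFD (2.06 and 3.85 UPM, ratio 1.86 [1.22 to 2.94]). There 2.42% of genes were at least 1.5-fold higher and beyond counting error. In B-like cells Ramp2 had 4 and 17 UMIs (ratio 3.88 [1.38 to 17.3]), and the share of genes at least 1.5-fold higher and beyond counting error was 2.27%. Mesenchymal marker genes, which these cells should not express, were also higher in the HFD library, at 143 and 249 UPM in neutrophil-like and 41.3 and 107 UPM in B-like cells. Their part in the result was not tested. With classes set by marker UMIs the log2 ratios were 0.10 in neutrophil-like and 0.61 in B-like cells, against 0.89 and 1.96, and with all cells weighted equally they were 1.75 and 2.93. The pairs past the fold whose intervals held 1 were Ramp3 in GMP-like cells (1.82 [0.956 to 3.59]), Calcrl in dendritic-like (0.652 [0.284 to 1.46]) and T-like cells (0.621 [0.337 to 1.07]), and Adm in neutrophil-like cells (0.574 [0.217 to 1.37]).

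Over the whole of the endothelial-like and mesenchymal-like classes, Calcrl and Ramp2 were within 1.5-fold between the diets. Ramp2 had ratios of 0.912 [0.818 to 1.02] in endothelial-like and 0.996 [0.918 to 1.08] in mesenchymal-like cells, and Calcrl 1.26 [0.953 to 1.68] and 1.11 [0.908 to 1.35]. Without the cell richest in Calcrl in each library, the mesenchymal-like Calcrl ratio was 1.49 [1.19 to 1.87], beyond counting error, so that 1 ND cell decided the near-even value. With the top 5% of doublet scores left out it was 0.74 on the log2 scale, past the fold, against 0.15. In B-like cells, where it was low, Calcrl had a ratio of 1.34 [1.02 to 1.76]. The one subcluster with a Calcrl ratio past the fold and beyond counting error on the high side was the Pi16-led one, at 2.27 [1.53 to 3.51]. On the low side it was the small Prg4-led one, at 0.404 [0.288 to 0.569], where 48 of the 69 ND UMIs lay in 1 cell and 54.6% of the cells had top doublet scores. Without the richest cell of each library this ratio was 0.895 [0.548 to 1.57], within counting error. Ramp2 was also past the fold and beyond counting error in small mesenchymal-like subclusters. Its ratio was 4.78 [2.91 to 8.96] in the Prg4-led one, on 15 and 201 UMIs, and 10.9 [4.66 to 45.2] without the cells richest in Ramp2. In the Col2a1-led cells it was 0.271 [0.113 to 0.642], on 13 and 12 UMIs. Ramp1 was above counting error but below the fold in macrophage or monocyte-like cells (1.36 [1.25 to 1.48]), dendritic-like cells (1.34 [1.12 to 1.63]) and basophil or mast-like cells (1.44 [1.04 to 2.04]). GMP-like (1.12 [1.06 to 1.18]) and B-like cells (1.18 [1.01 to 1.37]) differed by less, and mesenchymal-like cells were on the low side (0.813 [0.684 to 0.968]). Within macrophage or monocyte-like cells Ramp1 was 1.63 [1.32 to 2.04] in the C1qa-led macrophages, at 69.3 and 113 UPM, and 1.37 in the largest cluster of Ccr2-positive monocytes, at 183 and 249.8 UPM. The third cluster of this class, led by Ccl2 and also Ccr2-positive, held 165 and 141 UPM, a ratio of 0.864 [0.598 to 1.20] on 199 and 42 UMIs. In T-like cells Ramp1 had a ratio of 0.675 [0.504 to 0.891], but 0.903 and 0.712 within the first and second T-like clusters, whose shares differed between the libraries. The Ramp3 ratios were 1.40 [0.972 to 2.00] in T-like and 0.681 [0.314 to 1.54] in endothelial-like cells. No Crcp ratio was beyond counting error among the classes with at least 20 UMIs. Pericyte or smooth muscle-like cells, below that minimum at 10 and 4 Crcp UMIs, had a ratio of 0.223 [0.0477 to 0.722], and the Dntt-rich B-like cluster had 0.484 [0.238 to 0.939] on 24 and 16.

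**Figure D5:**
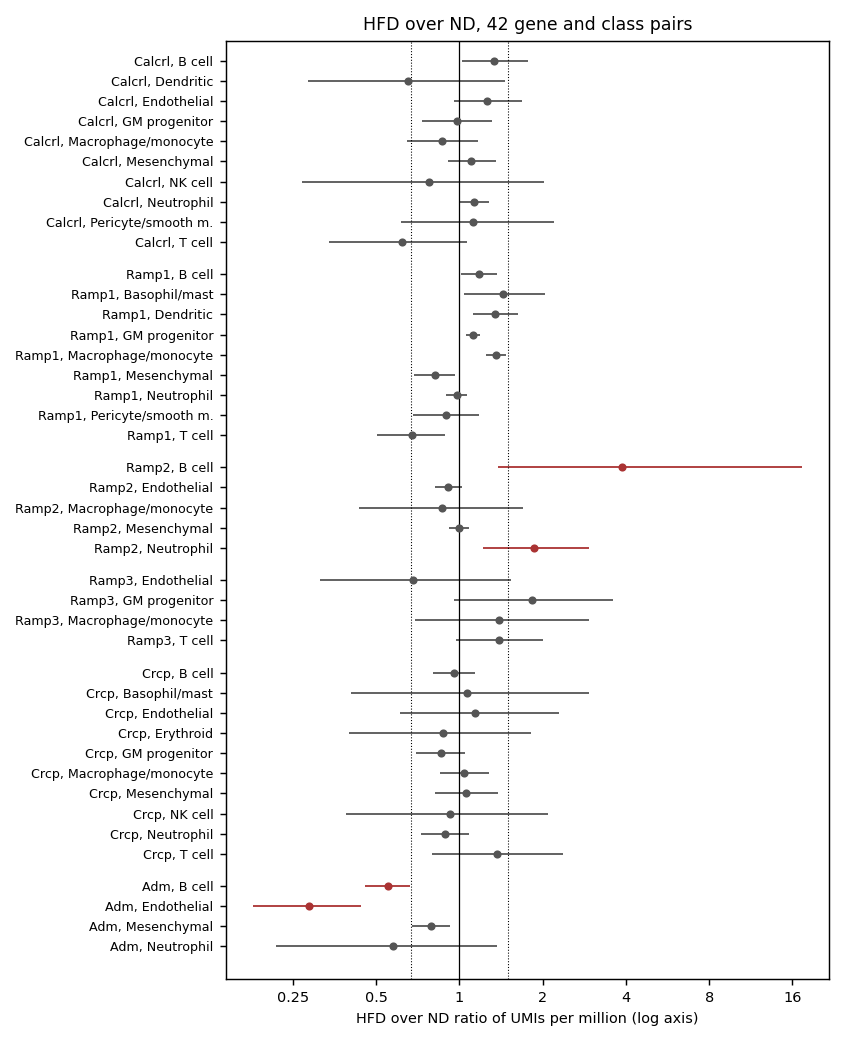
Ratio of HFD over ND for the 42 pairs of a member and a class. The axis is logarithmic, bars are exact binomial 95% intervals, dotted lines mark 1.5-fold, and red marks pairs past that fold and beyond counting error. Adm in endothelial-like cells is lowest at 0.286, and the 2 red points on the high side are Ramp2 at low counts.

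The other genes of the pathway were 53 listed genes, of which 45 had enough UMIs in at least 1 class, giving 306 pairs. Of these 26 were at least 1.5-fold higher in HFD and 13 lower, with 15 and 4 beyond counting error as well, and the median log2 ratio was 0.05. The higher pairs were 8.50% of the 306 and the lower 4.25%, or 4.90% and 1.31% beyond counting error, where the shares over all gene and class pairs were 7.19% and 8.31%, or 3.17% and 4%. Calca is a gene of CGRP, a peptide best known in this tissue from sensory axons. Its transcripts were rare in these cells, with 30 UMIs in ND and 57 in HFD. UMIs were counted per gene, so the transcript forms of Calca were not told apart. In T-like cells Calca had 15 and 33 UMIs, a ratio of 3.06 [1.65 to 6.18]. Of the genes in that class 2.5% were at least 1.5-fold higher and beyond counting error. Calcb, the second CGRP gene, had 3 and 2 UMIs, and Adm2 and Iapp, which encode related peptides, had none in either library.

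Of the other receptors, Ackr3, a scavenging receptor that binds adrenomedullin, was 373 UPM in ND and 265 UPM in HFD in mesenchymal-like cells (ratio 0.712 [0.667 to 0.761]), and 104 and 89.1 UPM in endothelial-like cells. In pericyte or smooth muscle-like cells it had 15 and 8 UMIs, a ratio of 0.285 [0.102 to 0.698]. Of the genes in that class 4.79% were at least 1.5-fold lower and beyond counting error. Gpr182, a receptor of endothelium once proposed for adrenomedullin, had 6 and 12 UMIs in all, 6 and 9 of them in endothelial-like cells, and Calcr, the calcitonin receptor, had 4 and 6. Ackr3 was thus the only one of these with more than a few UMIs.

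The peptide-processing and peptide-degrading enzymes had 8 higher and 1 lower of 36 pairs, 7 and 1 beyond counting error, or 19.4% and 2.78% against the 3.17% and 4% of all pairs. These pairs came from 7 genes, and not every higher pair is named below. Several of the higher ones lay in B-like and neutrophil-like cells, where mesenchymal marker genes were also higher in HFD. The share is therefore not read as a rise of the enzymes as a group. Pam, which amidates CGRP and adrenomedullin into their active forms, had 58 UMIs in ND and 267 in HFD in endothelial-like cells, or 100.5 and 243 UPM (ratio 2.40 [1.81 to 3.27]). Of the genes in that class 3.49% were 1.5-fold higher and beyond counting error. In mesenchymal-like cells, where it was most abundant at 749 and 782 UPM, the ratio was 1.04. Endothelial-like cells of the HFD library thus had less of the ligand transcript and more of the amidating enzyme transcript. Pam was also past the fold in B-like (2.48) and neutrophil-like cells (1.55), at low levels. Mesenchymal marker genes were also higher in HFD in these classes, at 41.3 and 107 UPM in B-like and 143 and 249 UPM in neutrophil-like cells, and their part in the Pam values was not tested. Cpe, a carboxypeptidase of peptide precursors, was higher in mesenchymal-like cells at 75.7 and 117.5 UPM (1.55 [1.37 to 1.76]). In that class 4.74% of genes were at least 1.5-fold higher and beyond counting error. Furin, a precursor convertase, was higher in T-like cells (1.79 [1.36 to 2.37]) and lower in pericyte or smooth muscle-like cells (0.540 [0.304 to 0.964]).

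The genes between receptor and cyclic AMP response had 17 higher and 11 lower of 264 pairs, 7 and 2 beyond counting error, or 2.65% and 0.758%, below the 3.17% and 4% of all pairs. Gnas, the stimulatory G protein subunit, was within 1.5-fold in each of the 12 classes, at 1524 and 1531 UPM in endothelial-like and 1754 and 1821 UPM in mesenchymal-like cells. In mesenchymal-like cells the phosphodiesterase gene Pde4d (1.59) and the cyclic AMP sensor gene Rapgef4 (1.94) were higher and the arrestin gene Arrb2 (0.576) was lower, where 4.74% and 3.98% of all genes were past the fold and beyond counting error in these directions. Pde4d was also higher in macrophage or monocyte-like cells (1.88), Crem, a cyclic AMP-responsive regulator, in dendritic-like cells (1.76), and the adenylate cyclase gene Adcy3 in GMP-like cells (2.15, on 12 and 19 UMIs). The shares of all genes at least 1.5-fold higher and beyond counting error in these 3 classes were 2.39%, 3.86% and 2.48%. Prkar2a, a regulatory subunit of protein kinase A, was higher in T-like (2.21) and B-like cells (3.15, on 6 and 20 UMIs). Pde4b, another phosphodiesterase gene, was lower in pericyte or smooth muscle-like cells, at 321 and 199 UPM (0.620 [0.467 to 0.825]).

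The genes whose class pattern was most like that of each member were found by the Pearson correlation of log2(UPM + 10) over the 12 classes, taking the lower of the values in the ND and HFD libraries, among 9923 genes. These correlations describe 12 points that share 2 libraries. Ramp2 was most like Cdh13 (0.984), Galnt15 (0.983) and Vwa1 (0.980), and Calcrl most like Map4k3 (0.908), Snx13 (0.907) and Tm4sf1 (0.904). Adm was most like Nuak1 (0.964), 2700081O15Rik (0.960) and Sav1 (0.884), and Ramp3 most like Klk8 (0.850), Cd3e (0.815), a T cell receptor subunit, and Cd5 (0.741). For Ramp1 the nearest were Paox (0.826), Adssl1 (0.816) and Mpc1 (0.792), and for Crcp Zdhhc6 (0.760), Samd1 (0.730) and Polr2b (0.708).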

How the data were processed

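Single-cell RNA libraries of periosteal cells were analysed from 1 pooled matrix per diet. The authors deposited UMI counts made with Cell Ranger 6.0.1 on the mm10 genome, per the labels. Cells with more than 500 and fewer than 8000 genes and under 20% mitochondrial UMIs were kept, the limits given in the study's methods. Cells were normalised with SCTransform (sctransform 0.4.2, Seurat 5.3.0, R 4.3.3) with regression of cell cycle scores, and clustered with 30 principal components at resolution 0.5. Named classes needed at least 3 detected markers, and the limits for naming and the subcluster resolutions were set after the clusters had been seen. Scrublet through scanpy 1.11.5 marked 0.149% of ND and 0.370% of HFD cells, too few to have worked, so doublets were kept, and leaving out the top 5% of scores or the cell richest in a gene were alternatives chosen after seeing the data. UMIs were summed per class, and ratios had 0.5 added to each count and conditional binomial 95% intervals (scipy 1.17.1). No test between diets was made. The ratio calculation was tested on simulated data. Named were all 6 members, the peptide and receptor genes, and most of the listed pathway pairs past 1.5-fold and beyond counting error. Also named were the 3 genes most like each member, and genes at either end of the ratios in endothelial-like and mesenchymal-like cells. The members, gene lists and alternatives were chosen with earlier results of these data known.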

Additional observations from a re-analysis of the deposited data

How the results depend on the processing

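No paired analysis was possible because each diet was deposited as 1 pooled matrix, and for the same reason no mouse could be left out in turn. No log2 ratio past 1.5-fold and counting error turned its direction under the alternatives run. As reported, 2 member pairs were higher and 2 lower, and 15 pathway pairs higher and 4 lower. With cells thinned to 1000 UMIs, the share of Calcrl-positive endothelial-like cells with Ramp2 was 60.0% in ND and 39.4% in HFD, and 1 member pair and 3 pathway pairs were higher. Thinning turned the order of Calcrl-positive and Calcrl-negative cells for that HFD share. For Ramp1 the order turned in neutrophil-, B- and T-like cells of both libraries and in HFD pericyte or smooth muscle-like cells. In ND it also turned in mesenchymal-, endothelial-, GMP-, dendritic-, basophil or mast- and NK-like cells, in most of these on few Calcrl-positive cells. With the top 5% of doublet scores left out, 4 member pairs were higher. With classes set by marker UMIs, the log2 ratio of Adm in endothelial-like cells was -0.98, member pairs were 0 higher and 4 lower, and pathway pairs 8 higher and 10 lower. With at least 1 UMI required, 5 member pairs and 8 pathway pairs were lower. With at least 100 UMIs, member pairs were 0 higher and 1 lower, and pathway pairs 6 higher and 2 lower. At 2-fold, member pairs were 1 higher and 1 lower, and pathway pairs 7 higher and 1 lower. Over the alternatives run, Adm had log2 ratios from -1.90 to -0.98 in endothelial-like and from -1.06 to -0.78 in B-like cells. With the cell richest in the gene left out of each library, an alternative chosen after seeing the data, the mesenchymal-like Calcrl log2 ratio was 0.57 against 0.15, and it ran from -0.10 with subclusters weighted equally to 0.74 without the top doublet scores. Levels of classes with few cells and shares of cells with a UMI are limited by depth.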
